A study of Arabidopsis thaliana with 6 samples.

Results

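Among the 33316 genes listed for the second internode of Arabidopsis stems, 6118 carried no exon length, so no RPKM value could describe them, and their deposited RPKM was 0. The genes described here were chosen by their summed reads from that set: a blank exon length, at least 200 total gene reads over the 6 libraries, and no ribosomal RNA annotation. The rule took 417 of the 33316 genes, after 4 ribosomal RNA codes had been left out. A further 1311 codes had fewer than 200 reads and 4386 had none. DEX samples came from p35S:Myc-GR-bdl plants given 15 µM dexamethasone (Dex) for 3 h, and Mock samples came from the same line given the mock solution for 3 h, with 3 libraries per group. All plants had reached 15 to 20 cm, after 3 weeks in short days of 8 h light and a later shift to long days of 16 h light. The growth protocol names wild type (Col-0), whereas titles and sources name the transgenic line. The 35S promoter drives the fusion protein broadly, and no plants without the transgene were analysed here, so an effect of Dex itself and an effect of bdl cannot be told apart.

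BODENLOS (BDL), of the AUX/IAA family, keeps AUXIN RESPONSE FACTORs (ARFs) from activating transcription, and bdl is its stabilized form. Fusion to the glucocorticoid receptor (GR) holds it inactive until Dex is given. Genes without coding exons are of several kinds. MicroRNA genes make hairpin transcripts that DICER-LIKE1 cuts into short RNAs, which guide ARGONAUTE proteins to complementary messenger RNAs. Trans-acting siRNA (ta-siRNA) precursors are cut under the guidance of a microRNA, copied into double-stranded RNA by RDR6 and SGS3, and diced in 21-base steps. Small nuclear RNAs serve in splicing, small nucleolar RNAs guide the modification of ribosomal RNA, and natural antisense transcripts lie across from another gene on the opposite strand.

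By the RefSeq annotation of TAIR10.1, 416 of the 417 codes were matched. Natural antisense transcripts were the most numerous class with 97 genes, followed by 89 transcribed pseudogenes, 87 pseudogenes and 86 other non-coding RNAs. There were 14 small nucleolar RNAs, 12 retroelement-derived loci, 11 small nuclear RNAs, 8 MUG genes, 7 microRNA precursors and 5 ta-siRNA precursors. AT3G07274 was not matched. Summed reads ran from 200 to 71526 with a median of 972, and 205 genes had at least 1000 reads. The 10 genes with the most reads held 31.8% of the 1198408 reads on all 417. Other non-coding RNAs held 36.2% of these reads, transcribed pseudogenes 20.6%, pseudogenes 15.7% and natural antisense transcripts 15.3%. Nearest inside the threshold stood AT2G07747 with 200 reads, AT2G07731 with 201 and AT1G74205 with 202. Nearest outside it stood AT3G21040 with 199 reads, AT2G46572 with 197 and AT3G01142 with 196.

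Each library held between 30601253 and 37812400 gene reads in total. The 417 genes took 0.563%, 0.585% and 0.606% of the reads in the DEX libraries, against 0.547%, 0.581% and 0.574% in the Mock libraries. The means were 0.585% ± 0.0214 in DEX and 0.567% ± 0.0179 in Mock (SD, n = 3 each), and the groups overlapped. The 4 ribosomal RNA codes that were left out held 0.141% ± 0.0224 in DEX and 0.369% ± 0.198 in Mock. BDL (IAA12), whose reads include those of the transgene, had 1461 ± 263 CPM in DEX and 1502 ± 473 CPM in Mock. Of 6 xylem, phloem and cambium markers tested, 0 were called, where 11.9% of all genes tested were. The means of the phloem and cambium markers differed between the groups. The phloem gene APL averaged 17.2 ± 2.38 CPM in DEX and 12.7 ± 0.375 CPM in Mock (adjusted p = 0.0515). The phloem gene SUC2 averaged 187 ± 35.6 CPM in DEX and 265 ± 30.3 CPM in Mock (adjusted p = 0.0873). The cambium gene PXY averaged 119.8 ± 33.2 CPM in DEX and 172 ± 23.4 CPM in Mock (adjusted p = 0.189). Their part in the changes below was not tested. The flower and seed markers AP3, AG and CRA1 had 4, 4 and 1 reads in all libraries together, and PI had 66.

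Of the 417 genes, 416 could be tested for a difference between DEX and Mock, and 24 passed at an adjusted p below 0.05 (edgeR quasi-likelihood test, Benjamini-Hochberg over all 19598 genes tested). That was 5.77% of them, against 11.9% of all genes tested. Of these, 7 fell, or 1.68% against 5.50% of all genes. The other 17 rose, or 4.09% against 6.38% of all genes. The median log2 fold change was -0.01 over the tested genes without exons and -0.01 over all genes tested. Their standard errors were larger, with a median of 0.19 against 0.13, and their level was lower, with a median of 4.7 CPM against 17.9 CPM. In bulk tissue, fewer cells of a type and less RNA per cell cannot be told apart. At an unadjusted p below 0.05 there were 73 genes.

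**Figure D1:**
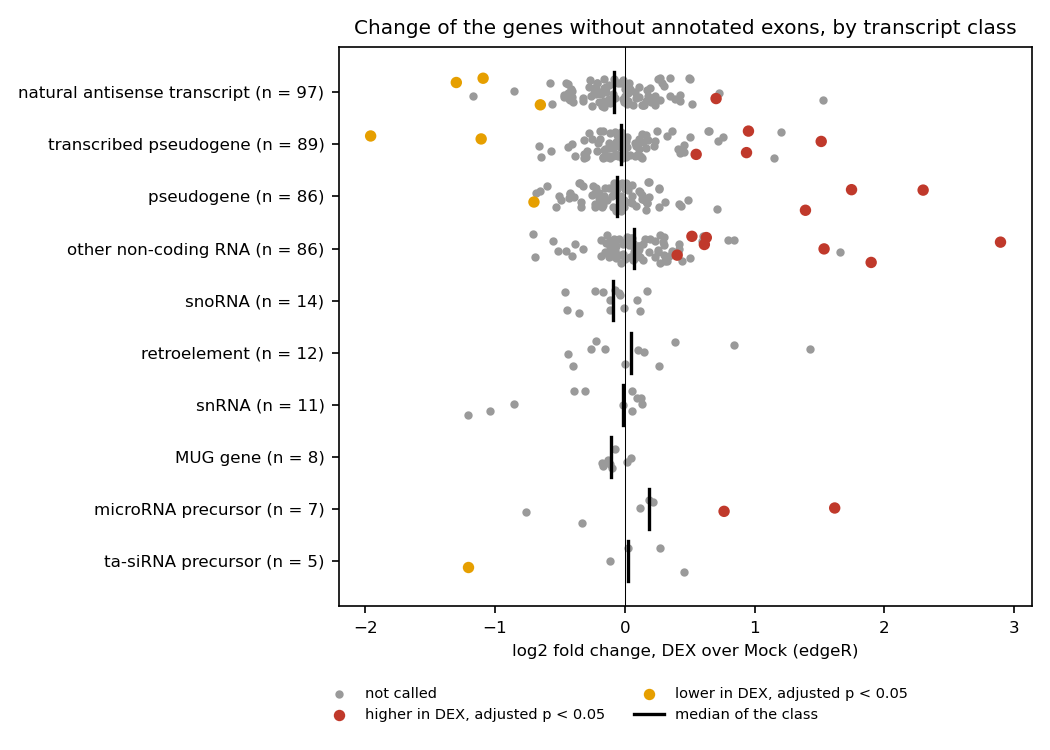
Each point is a gene without annotated exons, placed by its log2 fold change of DEX over Mock (horizontal axis) and its transcript class (rows, with the number tested); black bars are class medians and colours mark genes that passed at an adjusted p below 0.05. Calls were spread over 6 classes, and the small nucleolar RNAs, small nuclear RNAs, retroelements and MUG genes had 0 calls. Over all genes tested, 11.9% were called.

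TAS3 (AT3G17185), the precursor of the ta-siRNAs that act on ARF genes, was among the genes that fell. It lies on chromosome 3 from 5861491 to 5862437 on the plus strand, overlaps no other annotated gene, and all of its reads were unique. TAS3 had 2.68, 2.75 and 2.18 CPM in DEX, against 6.47, 5.83 and 5.25 CPM in Mock. Every DEX library lay below every Mock library. The log2 fold change was -1.21 (SE 0.16, adjusted p = 0.00296, edgeR). The related loci TAS3b and TASIR-ARF had 1 and 2 reads in all 6 libraries, so TAS3 held nearly all reads of its family.

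The TAS3 transcript was searched for 21-base windows whose complement occurs in ARF2, ARF3 (ETT) and ARF4 with at most 3 mismatches, because these windows carry the match between the precursor and its targets. Windows of this kind lay in a pair of adjoining repeats. The repeats and their sites are shown 5′ to 3′, and capitals in a site mark bases that pair with the second repeat. All of the ARF sites are in coding exons.
TAS3 repeat 1, chr3:5862185-5862205: ttcttgaccttgtaaggcctt
TAS3 repeat 2, chr3:5862205-5862225: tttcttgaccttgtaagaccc
ARF2 site, chr5:24913262-24913282: GGGTCTTgCAAGGTCAAGAAt
ARF3 first site, chr2:14325941-14325961: GGGTCTTgCAAGGTCAAGAAA
ARF3 second site, chr2:14325821-14325841: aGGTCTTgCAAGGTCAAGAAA
ARF4 first site, chr5:24309717-24309737: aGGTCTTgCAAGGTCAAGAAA
ARF4 second site, chr5:24309507-24309527: GGGTCTTgCAAGGTCAAGAAA

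ARF3 and ARF4 each held 2 sites and ARF2 held 1. They had 1 or 2 mismatches to the second repeat and 2 or 3 to the first. Near the middle, all of these sites have g opposite t of the repeat. Such positions (G with U in RNA) can pair loosely. They were counted as mismatches and stand in lower case, here and in the sites below. Upstream and downstream of the repeats, TAS3 had a pair of sites complementary to miR390, the microRNA that guides its cleavage with AGO7. Both had 5 mismatches, and capitals mark the bases that pair.
miR390a-5p with its seed (bases 2 to 8) in capitals: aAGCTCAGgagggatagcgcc
upstream site, chr3:5862099-5862119: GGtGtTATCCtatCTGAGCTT
downstream site, chr3:5862343-5862363: ttgtCTATCCCTCCTGAGCTa

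The 3 ARF genes with these sites differed in what they did. ARF4 had 83.9, 106 and 81.2 CPM in DEX, against 192, 198 and 211 CPM in Mock, and it fell with TAS3 (log2 fold change -1.15, SE 0.12, adjusted p = 0.0011). ARF3 had 88.8, 83.7 and 77.5 CPM in DEX, against 55.9, 57.3 and 56.1 CPM in Mock, and it rose (log2 fold change 0.56, SE 0.08, adjusted p = 0.00369). ARF2, an ARF that limits growth, averaged 280 ± 15.1 CPM in DEX and 292 ± 18.8 CPM in Mock (log2 fold change -0.06, SE 0.09, adjusted p = 0.794). AGO7, which binds miR390, had 28.2, 40.3 and 32.7 CPM in DEX, against 22.4, 22.1 and 23.0 CPM in Mock, and it rose (log2 fold change 0.58, SE 0.13, adjusted p = 0.0292). The miR390 genes MIR390a and MIR390b had 0 reads in every library, which allows up to 0.0773 to 0.0965 CPM in a library. Reads of a precursor do not measure the small RNAs made from it, and small RNAs were not measured.

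The other ta-siRNA precursors, all guided by miR173, did not pass the test. TAS1A had 15.0, 11.1 and 14.6 CPM in DEX, against 10.3, 9.31 and 10.05 CPM in Mock (log2 fold change 0.46, SE 0.14, adjusted p = 0.0778). TAS1B, TAS1C and TAS2 had log2 fold changes of 0.27, 0.02 and -0.11. Of 14 genes of small RNA machinery, which include the DICER-LIKE, ARGONAUTE and RDR6 genes, 1 rose (AGO7), 0 fell and 13 were not called. The median log2 fold change of the 14 was -0.09. Over all genes tested, 6.38% rose and 5.50% fell.

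**Figure D2:**
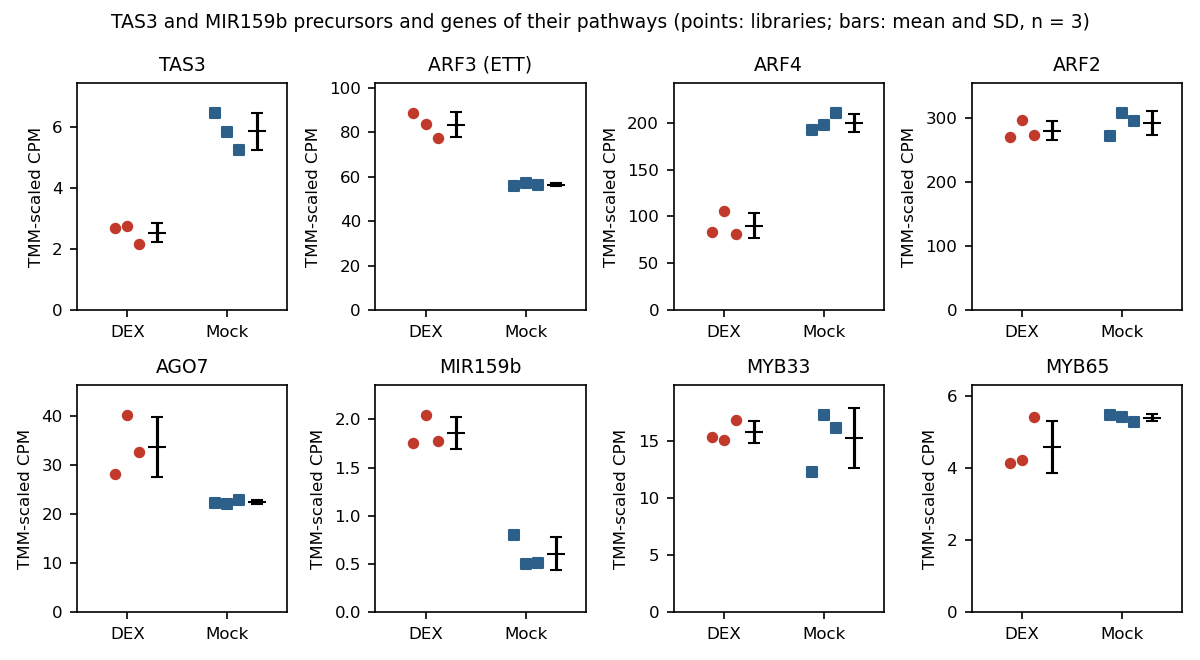
TMM-scaled CPM (vertical axes, from 0) of TAS3, the ARF genes with TAS3 sites, AGO7, MIR159b and MYB33 and MYB65 in each DEX and Mock library; points are libraries and bars are the mean and SD (n = 3). TAS3 and ARF4 were lower and ARF3, AGO7 and MIR159b higher in every DEX library than in every Mock library. ARF2, MYB33 and MYB65 overlapped.

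Of the 7 microRNA precursors, 2 rose and 0 fell, where 6.38% of all genes tested rose and 5.50% fell. With so few genes, these counts are not read as a trait of the class. MIR159b (AT1G18075), whose microRNA acts on GAMYB-type MYB genes, had 1.76, 2.05 and 1.77 CPM in DEX, against 0.804, 0.501 and 0.515 CPM in Mock. It rose 3.07-fold (log2 fold change 1.62, SE 0.25, adjusted p = 0.00583). It lies on chromosome 1 from 6220646 to 6220841. All DEX libraries of MIR159b lay above all Mock libraries, at a low depth of 254 reads in total. MIR159a and MIR159c, which share its seed, had 4 and 0 reads. MIR414 (AT1G67195) had 58.3, 52.0 and 75.6 CPM in DEX, against 35.0, 33.5 and 40.7 CPM in Mock (log2 fold change 0.77, SE 0.15, adjusted p = 0.0164). Its call was lost without Mock replicate 1 or Mock replicate 2, with an adjusted p of up to 0.0809. Per kilobase of gene span it had the highest level of the tested genes with a known span, 456 CPM per kb. Its annotated span is only 108 bases, and dividing by so short a span raises this value, so the rank depends on the annotation.

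The mature sequences of the precursors follow with the seed (bases 2 to 8) in capitals, to show which share it. Plant microRNAs pair with their targets over nearly their whole length. The 3 miR159 genes share the seed TTGGATT, and no other seed below is shared.
miR159b-3p, chr1:6220813-6220833: tTTGGATTgaagggagctctt
miR159a, chr1:27713234-27713254: tTTGGATTgaagggagctcta
miR159c, chr2:18994826-18994846: tTTGGATTgaagggagctcct
miR414, chr1:25137519-25137539: tCATCTTCatcatcatcgtca
miR163, chr1:24884359-24884382: tTGAAGAGgacttggaacttcgat
miR172a, chr2:11942918-11942938: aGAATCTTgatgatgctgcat
miR398c-3p, chr5:4694778-4694798: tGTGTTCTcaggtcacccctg
miR824-5p, chr4:12625128-12625148: tAGACCATttgtgagaaggga

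MYB33 and MYB65 hold a coding-exon site complementary to miR159b-3p with 4 mismatches each, and the site has the same letters in both genes (capitals pair). An unpaired base lies opposite the seed.
MYB33, chr5:1839579-1839599: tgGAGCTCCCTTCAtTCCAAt
MYB65, chr3:3604151-3604171: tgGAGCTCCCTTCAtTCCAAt

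MYB33 had 15.4, 15.1 and 16.9 CPM in DEX, against 12.3, 17.3 and 16.2 CPM in Mock (log2 fold change 0.05, adjusted p = 0.891). MYB65 had 4.13, 4.22 and 5.42 CPM in DEX, against 5.47, 5.42 and 5.28 CPM in Mock (log2 fold change -0.23, adjusted p = 0.43). Neither was called. MYB101, with a coding-exon site of 3 mismatches, had 2 reads in all libraries together and was not tested. These MYB genes were chosen after MIR159b had been seen to rise.

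MIR163, which acts on methyltransferase genes, averaged 28.9 ± 4.29 CPM in DEX and 25.3 ± 5.86 CPM in Mock and was not called. MIR824, whose target is the MADS-box gene AGL16, had 3.79, 1.41 and 1.99 CPM in DEX, against 4.92, 4.21 and 3.14 CPM in Mock (log2 fold change -0.76, adjusted p = 0.265, called without DEX replicate 1 at -1.26), and AGL16 had a log2 fold change of -0.04. MIR172a, which acts on AP2 and TOE1, had a log2 fold change of -0.33 (adjusted p = 0.552), beside -0.45 for AP2 and -0.17 for TOE1 (listed as RAP2.7). MIR869 had a log2 fold change of 0.12. MIR398c, which acts on the superoxide dismutase genes CSD1 and CSD2, showed a log2 fold change of 0.22 (SE 0.60), and only 1.13% of its reads were unique. CSD1 and CSD2 had log2 fold changes of 0.07 and -0.04. Of the 178 microRNA codes in the tables, 115 had 0 reads. In a list of 37 targets of microRNAs and ta-siRNAs, 36 were tested, 8 fell and 3 rose, with a median log2 fold change of -0.10. Of all genes tested, 5.50% fell and 6.38% rose. Those that fell were REV, PHB, ATHB8, ARF10, ARF4, SPL2, TCP4 and GRF1, and those that rose were ARF3, NAC1 and TIR1. The list holds many genes of the auxin pathway, and the paper names ATHB8 as a direct ARF5 target. The part of small RNAs in these changes was not tested. The precursors for most of the listed targets were not among the 417 genes.

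**Figure D3:**
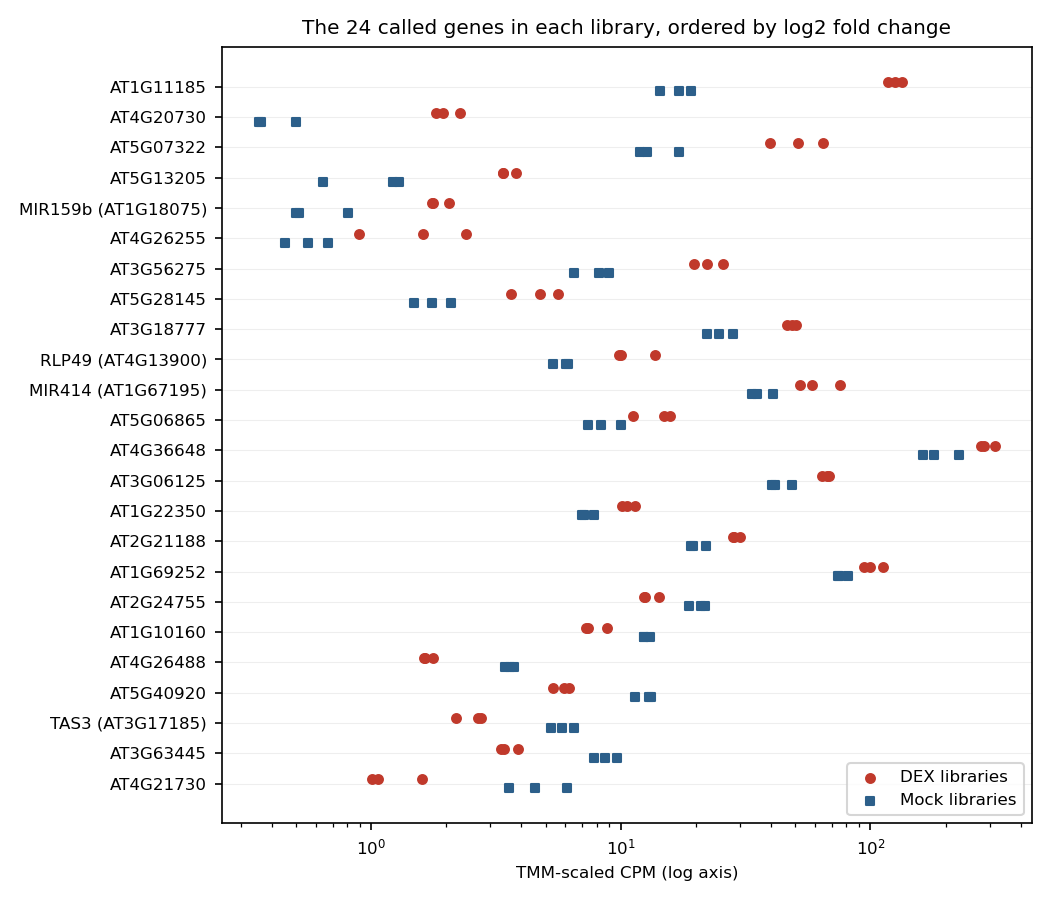
TMM-scaled CPM (horizontal log axis) of the 24 genes that passed the test, in each DEX library (circles) and Mock library (squares), ordered from the highest log2 fold change at the top to the lowest at the bottom. AT1G11185 stands at the top with 117 to 134 CPM in DEX against 14.3 to 19.1 CPM in Mock.

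Other non-coding RNAs had 7 genes that rose and 0 that fell out of 86, where 6.38% of all genes tested rose and 5.50% fell. The log2 fold change was above 0 for 57 of the 86, with a median of 0.07 against -0.01 over all genes tested. The median SE of a gene in this class was 0.16. AT1G11185, an RNA of unknown function on chromosome 1 from 3749510 to 3750035, had 125, 117 and 134 CPM in DEX, against 17.1, 14.3 and 19.1 CPM in Mock. It rose 7.44-fold (log2 fold change 2.90, SE 0.12, adjusted p = 3.42e-05), the largest change among the 416 tested. BFN1, 31 bases away on the opposite strand, had a log2 fold change of -0.30 (adjusted p = 0.475), and SCAMP2 at 953 bases had 0.25. AT5G07322 had 64.7, 39.5 and 51.4 CPM in DEX, against 17.1, 12.8 and 11.95 CPM in Mock (log2 fold change 1.90, SE 0.21, adjusted p = 0.00139). AT4G36648, the second most read gene of the set, had 316, 285 and 278 CPM in DEX, against 162, 226 and 180.4 CPM in Mock (log2 fold change 0.63, SE 0.14, adjusted p = 0.026). Its call was lost without Mock replicate 1 or 3 or DEX replicate 1 or 2, with an adjusted p of up to 0.0841.

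AT3G06125, AT2G21188 and AT1G69252 rose by log2 fold changes of 0.61, 0.52 and 0.40. The groups did not overlap for any of them, which was so for all 24 called genes. AT3G06125 had 64.1 to 68.3 CPM in DEX against 40.3 to 48.5 CPM in Mock. AT2G21188 was not called without Mock replicate 2 (adjusted p = 0.0572). AT4G26255 had 2.40, 0.895 and 1.61 CPM in DEX, against 0.450, 0.560 and 0.670 CPM in Mock (log2 fold change 1.54, SE 0.39, adjusted p = 0.0443). AT4G26255 kept its call only without DEX replicate 2 when single libraries were left out, with an adjusted p of up to 0.152 otherwise. AT1G69252 kept it only without DEX replicate 3, with an adjusted p of up to 0.14 otherwise. GUT15, a long non-coding RNA named for its fast turnover, was the most read of all, with 343, 341 and 364 CPM in DEX, against 299.9, 362 and 349 CPM in Mock, and was not called (log2 fold change 0.05, adjusted p = 0.836). AT4G13495, which overlaps AT4G13493 and AT4G13494 on the same strand, had a log2 fold change of -0.32 (adjusted p = 0.218).

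Pseudogenes were called in both directions. Of the 89 transcribed pseudogenes 2 fell and 4 rose, and of the 86 tested pseudogenes 1 fell and 3 rose. Over all genes tested, 5.50% fell and 6.38% rose. AT4G21730, noted as a pseudogene of the membrane fusion factor NSF, had 1.00, 1.598 and 1.06 CPM in DEX, against 4.54, 6.10 and 3.58 CPM in Mock (log2 fold change -1.96, SE 0.27, adjusted p = 0.00388). AT5G40920 had 5.33, 5.94 and 6.21 CPM in DEX, against 11.4, 13.0 and 13.3 CPM in Mock (log2 fold change -1.11, SE 0.12, adjusted p = 0.0011). AT1G10160 fell by 0.70 on the log2 scale, with 7.79 ± 0.867 CPM in DEX and 12.6 ± 0.389 CPM in Mock. Each of the 3 had lower values in every DEX library.

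Among those that rose, AT4G20730 had 2.26, 1.82 and 1.94 CPM in DEX, against 0.354, 0.501 and 0.361 CPM in Mock (log2 fold change 2.30, SE 0.24, adjusted p = 0.00106). AT5G13205 had 3.79, 3.39 and 3.38 CPM in DEX, against 1.22, 1.30 and 0.644 CPM in Mock (log2 fold change 1.75, SE 0.27, adjusted p = 0.00565). Reads that map to a single place were 54.6% and 53.5% for these genes, and on unique reads alone the log2 fold changes were 1.83 and 1.22, still called. AT3G56275 averaged 22.5 ± 2.98 CPM in DEX and 7.87 ± 1.28 CPM in Mock (log2 fold change 1.51), and AT5G28145 averaged 4.66 ± 0.983 CPM in DEX and 1.77 ± 0.306 CPM in Mock (log2 fold change 1.39). AT3G18777, RLP49 and AT1G22350 rose by log2 fold changes of 0.95, 0.94 and 0.55. AT1G22350 was not called without Mock replicate 2 or 3 or DEX replicate 2 (adjusted p of up to 0.079). RLP49 belongs to the receptor-like proteins, which sense molecules outside the cell. AOP2, a glucosinolate enzyme gene that is truncated in this accession, had 217, 267 and 193 CPM in DEX, against 177, 189.9 and 136 CPM in Mock and was not called (adjusted p = 0.173). AT1G79245, the most read transcribed pseudogene, had 178, 199.9 and 236 CPM in DEX, against 201, 303 and 258 CPM in Mock (log2 fold change -0.31, adjusted p = 0.343). The most read pseudogenes AT2G11240, AT1G80020 and AT1G35115 had log2 fold changes of -0.23, 0.05 and -0.12 and were not called.

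A few genes that changed had a neighbour that changed the same way. Within 1000 bases of the 24 called genes lay 27 other genes of the tables, of which 24 were tested and 5 called, beside 4 of the called genes, where 11.9% of all genes tested were called. All 5 moved in the direction of the gene without exons. AT4G21740 lies 63 bases from AT4G21730 on the same strand and fell (log2 fold change -1.41, adjusted p = 0.00264). AT5G40910, a TIR-NBS-LRR resistance gene 165 bases from AT5G40920 on the same strand, fell (log2 fold change -1.21, adjusted p = 0.00515). AT5G13200, a GRAM domain gene 232 bases from AT5G13205 on the opposite strand, had 110.1, 104 and 105 CPM in DEX, against 41.4, 43.1 and 37.1 CPM in Mock and rose (log2 fold change 1.39, adjusted p = 0.00011). Whether reads or transcripts of these neighbours extend into the genes without exons was not tested. The neighbours were looked up after the calls had been seen.

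Natural antisense transcripts had 3 genes that fell and 1 that rose out of 97, where 5.50% of all genes tested fell and 6.38% rose. Reads of the 97 antisense genes were seldom unique, with a median of 16.8% against 100% for transcribed pseudogenes. For 51 of the 97 the unique share was under 20%, and for 7 it was at least 90%. The tested genes across from the antisense genes had a median unique share of 8.31%. The library kit marks strand, but no source used here says whether the counts are strand-specific. Where a gene and its antisense partner overlap, their reads thus cannot be told apart. Of the 96 with a gene across from them, 77 had that gene tested, and 9 of these partners (11.7%, against 11.9% of all genes) were called, 5 lower and 4 higher in DEX. In 5 of the 9 the antisense gene had a log2 fold change of the same sign, and in 1 it was called too.

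**Figure D4:**
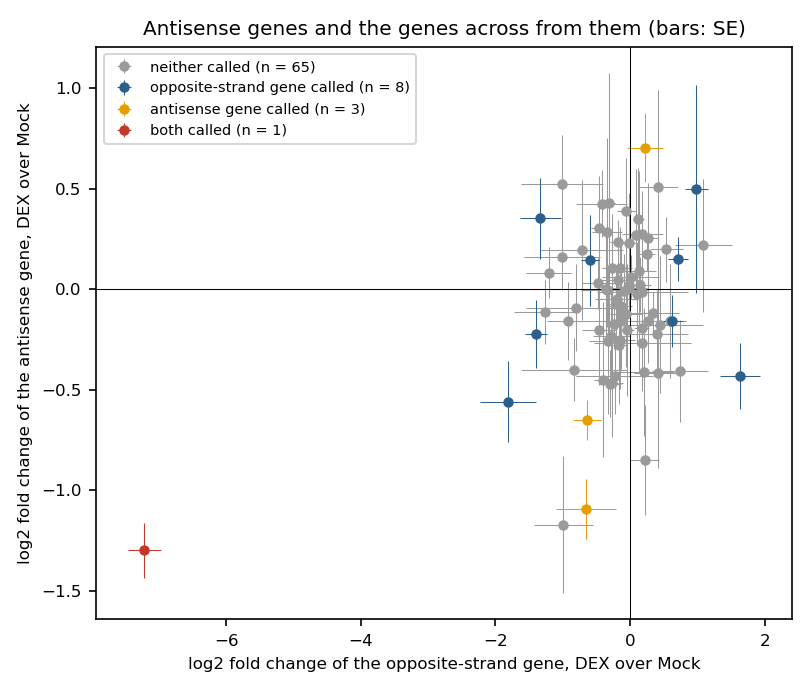
Log2 fold change of DEX over Mock of each natural antisense gene (vertical axis) against that of the tested gene with the largest overlap on the opposite strand (horizontal axis), with SE as bars, for 77 gene pairs. AT3G63445 and CKX6 at the lower left are the only pair with both called, and 8 called partners lie across from an antisense gene that was not called.

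That pair was AT3G63445 and CKX6 (AT3G63440), a cytokinin oxidase that degrades cytokinin. CKX6 had 0.279, 0.192 and 0.191 CPM in DEX, against 28.2, 30.8 and 41.2 CPM in Mock (log2 fold change -7.21, adjusted p = 1.55e-05). AT3G63445 overlaps it by 2234 bases and had 3.40, 3.32 and 3.87 CPM in DEX, against 7.82, 9.66 and 8.60 CPM in Mock (log2 fold change -1.30, SE 0.14, adjusted p = 0.0011). Only 31.1% of its reads were unique, and on these the log2 fold change was -0.68 (adjusted p = 0.037). TRM5, 115 bases from AT3G63445, fell as well (log2 fold change -1.50, adjusted p = 0.0488), at under 1 CPM. How far reads of CKX6 enter the value of AT3G63445 was not tested.

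The other called antisense genes had few unique reads. AT4G26488 had 1.65, 1.63 and 1.77 CPM in DEX, against 3.73, 3.59 and 3.45 CPM in Mock (log2 fold change -1.09, SE 0.15, adjusted p = 0.00345), with 6.76% unique. On unique reads alone AT4G26488 could not be tested. Its partners AT4G26490 and UKL4 had log2 fold changes of -0.66 and 0.05 and were not called. AT2G24755 fell by 0.65 on the log2 scale, and on its 5.75% unique reads the call was lost (adjusted p = 0.385). AT5G06865 lies across from PGIP1, an inhibitor of fungal polygalacturonases, and rose (log2 fold change 0.70, adjusted p = 0.0377), beside 0.22 for PGIP1, but not without Mock replicate 2 or 3 or DEX replicate 1 or 3 (adjusted p of up to 0.147). The most read antisense genes AT2G26355, AT4G38932 and AT2G21187, with 100%, 99.4% and 12.7% unique reads, had log2 fold changes of 0.23, 0.13 and 0.42 and were not called. Opposite signs on total reads occurred too. AT1G75300 had a log2 fold change of 1.63 (adjusted p = 0.0131) beside -0.43 for its antisense gene AT1G75295. AT1G67790 had -1.33 (adjusted p = 0.0282) beside 0.35 for AT1G67792. Neither antisense gene was called (adjusted p = 0.161 for AT1G75295 and 0.368 for AT1G67792). On unique reads, 16.7% and 5.06% of the total, their log2 fold changes were -0.02 and -0.34, so the signs were not opposite for AT1G67792.

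The loci named as Sadhu or other retroelements and the MUG genes were read but not called, and other classes were not searched for mobile element sequence. Sadhu elements are non-coding retrotransposons, and 11 of them were among the 12 retroelement loci. SADHU1-1 had 229, 215 and 270.4 CPM in DEX, against 259, 225 and 231 CPM in Mock (log2 fold change 0.00). SADHU1-2 had a log2 fold change of -0.15. SADHU4-1 had 39.7, 30.4 and 24.97 CPM in DEX, against 24.8, 15.6 and 13.0 CPM in Mock (log2 fold change 0.84, SE 0.26, adjusted p = 0.0942). The 8 MUG genes, which derive from transposases of Mutator-like elements, had log2 fold changes from -0.17 to 0.05, with 0.02 for MUG1, -0.07 for MUG8 and -0.17 for MUG4, the most read. Replicates of the MUG genes were close, with a median coefficient of variation within groups of 9.79%, against 10.9% over all genes tested.

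Small nuclear and small nucleolar RNAs had 0 calls among 11 and 14 genes, where 11.9% of all genes tested were called. The coefficient of variation of the small nuclear RNAs was 32.4% in the median, and their reads were 26.1% unique in the median. U2.3, the most read, had 9.31, 10.7 and 12.9 CPM in DEX, against 12.5, 7.72 and 10.7 CPM in Mock (log2 fold change 0.09, adjusted p = 0.857), and U2.4 and U2.5 had 0.05 and -0.01. The U6 gene U6-29 had 1.06, 2.17 and 0.872 CPM in DEX, against 2.73, 1.88 and 4.74 CPM in Mock (log2 fold change -1.21, SE 0.45, adjusted p = 0.15), with 2.12% unique. U3D, the most read small nucleolar RNA, had a log2 fold change of -0.01 and no unique reads. AT3G47347 and AT3G47348 had -0.11 and -0.23.

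A block of 19 genes lay on chromosome 2 between 3244585 and 3482066, with spans that match the mitochondrial genome over 100% of their length at 95% identity or more. The tables held 0 codes of the mitochondrial or plastid genome. Together these genes had 188, 191 and 189.7 CPM in DEX, against 182, 165.9 and 205 CPM in Mock. Of the 19, 0 were called, where 11.9% of all genes tested were. The log2 fold changes of the 19 ran from -0.56 to 0.46 with a median of 0.10. AT2G07783 was the most read, with a log2 fold change of 0.10. Reads from mitochondrial transcripts and from the nuclear copy cannot be told apart where the sequences are identical.

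Windows from 250 bases before to 50 after the annotated start were searched on both strands for the auxin response element letters. The motifs were TGTCTC, then its variant TGTCGG, and the core written TGTCNN, which overlaps both. TGTCTC was found for 13.9% of the 416 genes and 14.0% of all 32827 genes with a window. TGTCGG was found for 6.01% and 5.14%, and TGTCNN for 80.3% and 81.2%. Of the 24 called genes, 5 held TGTCTC, among them MIR159b with 2 matches, while the windows of TAS3 and AT1G11185 held neither TGTCTC nor TGTCGG. For microRNA genes the annotated start is that of the hairpin.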

How the data were processed

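RNA sequencing libraries were made from second internodes, 3 from DEX and 3 from Mock plants. The study's methods, where they describe RNA preparation and qRT-PCR, give 3 biological replicates of 3 plants each per treatment, and the design text of the series speaks of pooling the RNA of 3 samples. How the pooling relates to single libraries is not given there, so p-values measure the spread between these libraries. The authors aligned single-end reads to TAIR10 with CLC Genomics Workbench, per the study's methods. The deposited counts (total and unique gene reads) were used as given. The RPKM values, which the authors computed over exons, were 0 for all genes studied here and were not tested. Entries without a gene name (5 of 33323) held 0.093% to 0.135% of the reads and were left out.

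The genes and lists were chosen with earlier results of these data known. Total gene reads of the whole table were tested with edgeR 4.0.16 in R 4.3.3 (filterByExpr, TMM, two-sided quasi-likelihood F test, Benjamini-Hochberg over 19598 genes, threshold 0.05). The fit was also run on simulated data with a common spread for all genes (biological coefficient of variation 15.8%). In the real data the genes without exons varied more within groups than all genes tested (median 14.8% against 10.9%). The simulated run therefore does not measure how well the fit serves them. CPM values are TMM-scaled and SDs are over 3 libraries. The SE is the log2 fold change divided by the square root of F. AT2G10000 did not pass the filter. Intervals and floors (3 reads) cover counting error only. Classes, positions and sequences come from RefSeq's TAIR10.1, whose nuclear chromosomes are those of TAIR10. Named genes were the 10 genes with the smallest adjusted p in each direction, the 3 most read of each class, the microRNA and ta-siRNA precursors that were called or whose targets were listed, the 3 genes on either side of the threshold, and families of those named. Other called genes, neighbours, and MYB and AGL16 targets were added after their values were seen. The organelle match used blastn. Alternatives were other scalings, filters and tests (limma 3.58.1, DESeq2 1.42.0), unique reads, subsets, a replicate block and leaving out each library.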

Additional observations from a re-analysis of the deposited data

How the results depend on the processing

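All 24 called genes kept their direction under the 16 alternative fits in which they could be tested, and 16 of the 24 stayed called in each. AT4G26488 is among the latter but could not be tested on unique reads. The number that fell was 7. It was 13 with DESeq2 and 4 among genes with at least 1000 reads, among genes that overlap no other gene and among genes with at least 90% unique reads, subsets that hold fewer genes. The number that rose was 17, and 25 with DESeq2. Leaving out single libraries gave 7 to 9 that fell and 11 to 18 that rose, with 11 without Mock replicate 2. The share of library reads on the genes was 0.53% in DEX and 0.509% in Mock on unique reads, against 0.585% and 0.567% on all reads. Without single libraries it ran from 0.574% to 0.595% in DEX and from 0.56% to 0.577% in Mock. With the replicate number as a block, 19 fell and 33 rose. The shares of all genes called under these alternative fits are not given here, so the counts are not read as a trait of the genes without exons. Libraries of the same number correlated at 0.52, 0.02 and 0.51 in their deviations from the group means. DEX 1 with Mock 3 and DEX 3 with Mock 1 were at -0.47 and -0.54, and DEX 2 correlated best with Mock 1 (0.13). The same number thus went with similar deviations for replicates 1 and 3 but not for replicate 2. Whether the numbers pair the libraries was not settled, and the main fit used no block. The causes of the differences between settings were not tested. Calls were lost for 8 genes: AT1G69252 and AT4G26255 were called in 10 of 16 and 9 of 15 fits, AT4G36648 and AT5G06865 in 12 of 16, and AT1G22350, MIR414, AT2G21188 and AT2G24755 in 13 to 15 of 16. TAS1A was called with DESeq2, with the block and without DEX replicate 2, and SADHU4-1 with DESeq2 and with the block.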

Other observations

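AT2G10000, typed as a pseudogene, had 0, 0 and 1 reads in DEX, against 215, 0 and 0 reads in Mock, so a single library placed it above the threshold of 200 reads, and it was not tested. AT5G40348, antisense to MYB24, had 139, 49 and 19 reads in DEX, against 40, 10 and 20 in Mock (log2 fold change 1.53, SE 0.77, adjusted p = 0.299, edgeR), and both groups spread widely. SADHU7-1 had 73, 49 and 93 reads in DEX, against 35, 30 and 12 in Mock, with 9.93% of them unique (log2 fold change 1.43, adjusted p = 0.0801). SADHU3-1 had 13 reads in DEX 1 but 76 in both other DEX libraries.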
